A study of Mus musculus with 8 samples.

Results

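Described here are 9 genes that were higher in islets lacking the cannabinoid 1 receptor (CB1R) in beta cells: *Gbp8*, *Matn2*, *Neb*, *Ehhadh*, *Fmo1*, *Ivd*, *Tnfrsf11b*, *Bcat1* and *Ephx1*. They are 9 of the 21154 genes to which a probe could be matched, and all 14 of their probes were examined. The genes were picked as islet targets of lactogenic hormones or genes of the pregnant islet because they were higher in the same comparison of genotypes on these same arrays, so their differences between genotypes are a description. Where limma's calls are counted for them, nothing is read from the count. Total RNA of hand-picked islets from male mice, labelled C57BL/6 and fed a standard diet, was hybridised to 8 single-colour Agilent arrays. The mice were 4 β-CB1R+/+ and 3 β-CB1R-/-. The second β-CB1R-/- replicate was measured on a pair of repeat arrays that were averaged. By the study's methods both genotypes carried *Cnr1* flox/flox and both were given tamoxifen by daily i.p. injection for 5 days. The β-CB1R-/- mice also carried MIP-Cre/ERT, a Cre recombinase driven by the mouse insulin promoter and switched on by tamoxifen, which their β-CB1R+/+ littermates did not carry. The transgene and the deletion of *Cnr1* were therefore present in the same mice and cannot be told apart. The sample labels give only CB1 WT or CB1 KO and their husbandry text describes a global knockout, whereas the title and design of the series name the beta cell-specific one. Age is not stated in the labels. In whole islets, fewer cells of a type and less RNA per cell cannot be told apart.

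Lactogens are the hormones prolactin, placental lactogen and growth hormone. On beta cells they bind the prolactin and growth hormone receptors, which signal through the kinase JAK2 and the transcription factor STAT5, and in pregnancy they drive growth of the beta cell mass and serotonin synthesis by *Tph1*. MIP-Cre/ERT is known to include a minigene of human growth hormone, which is background that was not measured here. The 9 genes serve different functions. *Ivd* and *Bcat1* act in branched-chain amino acid metabolism, *Ehhadh* in peroxisomal fatty acid oxidation, and *Fmo1* and *Ephx1* in the handling of foreign compounds. *Matn2* and *Tnfrsf11b* encode secreted proteins, *Gbp8* belongs to a family of interferon-inducible GTPases, and *Neb* encodes a giant protein of the muscle thin filament.

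Levels are log2 intensities minus that of the array's own 75th percentile, so that a level of 0 lies at that percentile, and a difference is the mean of the β-CB1R-/- mice minus the mean of the β-CB1R+/+ mice. Each array had 33308 to 39989 probes, out of 55681, that stood well above background. The *Cnr1* probe lay between −1.11 and −0.02 in the β-CB1R+/+ mice and at −2.30, −3.13 and −2.28 in the β-CB1R-/- mice, and the groups did not overlap (limma adjusted p = 0.193 over all probes). All arrays were on 1 slide, with the genotypes on opposite sides, so position on the slide and genotype cannot be told apart. All 10 beta cell markers were well above background on all 8 arrays. Of 12 marker lists for islet and other cell types and for immediate-early genes, 1 had a summed level that did not overlap between genotypes: the alpha cell list was 9.91 to 10.33 in β-CB1R+/+ and 9.59 to 9.86 in β-CB1R-/- islets (exact permutation test, two-sided p = 0.0571, 0.343 adjusted over the 12 lists). The macrophage list had the same p values and nearly separated, at 5.48 to 5.91 in β-CB1R+/+ and 5.90 to 6.54 in β-CB1R-/- islets, and all 9 of its markers had a mean above that of the β-CB1R+/+ mice. The macrophage sum is carried by the bright marker *Itgam*, whose groups overlapped. *Itgam* lay at 5.04 to 5.41 in the β-CB1R+/+ mice and at 5.95, 6.18 and 5.24 in the β-CB1R-/- mice. Without β-CB1R+/+ replicate 4, 5 lists did not overlap (alpha cells, macrophages, stellate cells and fibroblasts, adipocytes and lymphocytes), and without β-CB1R-/- replicate 3, 4 did not (alpha cells, macrophages, acinar cells, and delta and PP cells). The part of these in the levels of the 9 genes was not tested.

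Each of the 9 genes had at least 1 probe on which every β-CB1R-/- mouse was above every β-CB1R+/+ mouse. Such probes are called separating probes here. They were 12 of the 14 probes, and 11 of the 13 probes that were compared across all genes, where the background was 2.16% of 39160 probes. On 0 of the 13 was every β-CB1R-/- mouse below every β-CB1R+/+ mouse, against 1.96% of all probes. On the 8 separating probes that were measured above background in both genotypes, the gap between the lowest β-CB1R-/- mouse and the highest β-CB1R+/+ mouse ranged from 0.78 to 2.84. In limma's fit over all probes with Benjamini-Hochberg adjustment, 9 of the 13 probes, from 7 genes, passed as higher in β-CB1R-/- islets, against 0.107% of all probes (0.11% in either direction). Of the 9 probes, 3 (*Gbp8*, the dim *Fmo1* probe and *Bcat1*) were not well above background in any β-CB1R+/+ mouse and were compared only because they were so in β-CB1R-/- mice. *Ivd* and *Tnfrsf11b* had no probe past that threshold. These counts describe genes that were chosen by this contrast and are not evidence of it. The number of genes with a called probe changed when a mouse was left out. Leaving out β-CB1R+/+ replicates 1, 2, 3 or 4 in turn left 5, 1, 0 or 4 of the genes, and leaving out β-CB1R-/- replicates 1, 2 or 3 left 3, 0 or 1. Without a β-CB1R-/- mouse the 3 dim probes no longer met the filter of 3 mice and were not compared, which is part of that fall. By the brightest compared probe of each gene, the median difference of the 9 genes was 2.20, also with *Gbp8* at its bound, against −0.04 over all 16955 genes. On that probe 5 of the 9 were called, against 0.171% of all genes, and 7 of the 9 kept the genotypes apart, against 2.61%.

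**Figure D1:**
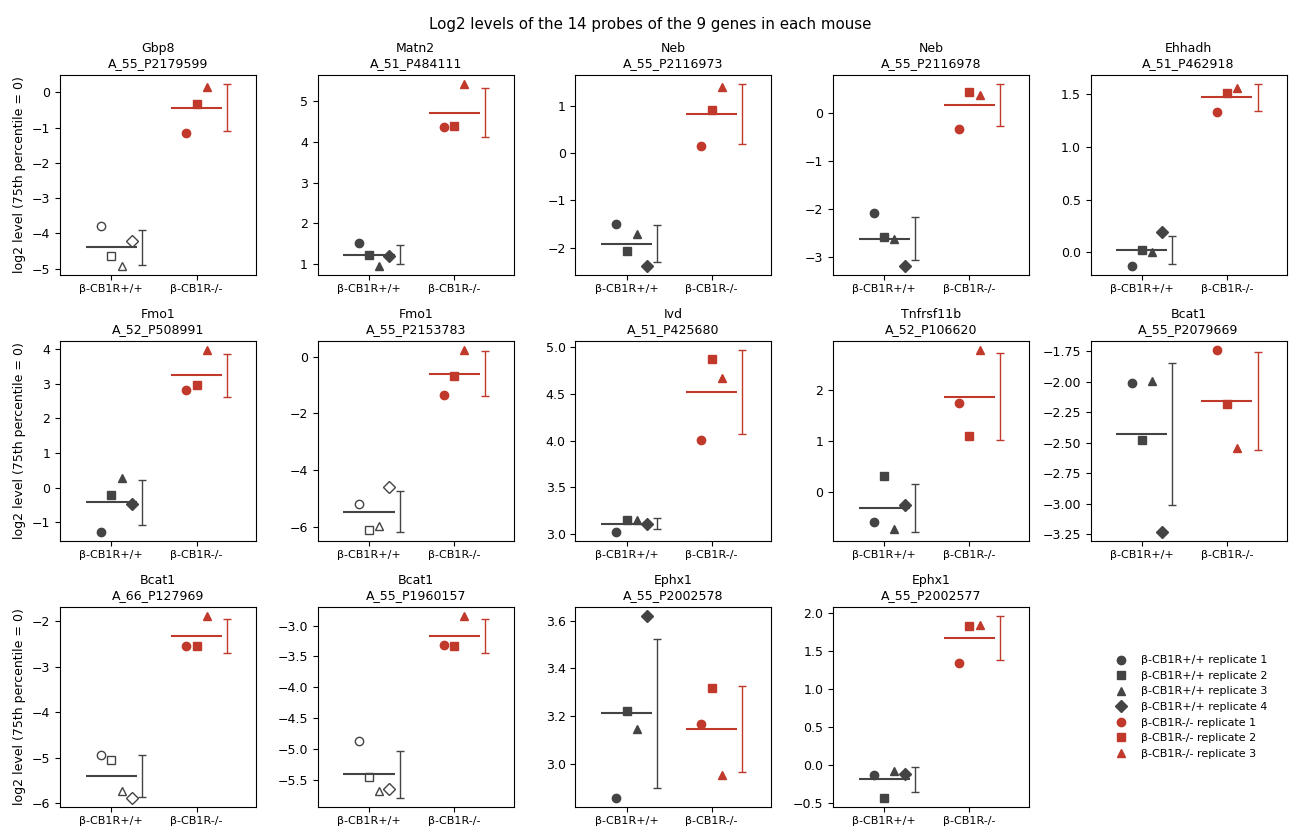
Log2 level of each of the 14 probes in each of the 7 mice, relative to the 75th percentile of the array (vertical axes differ between panels). Points are mice, horizontal lines are group means, vertical bars are SDs, and open points mark the 4 probes that were well above background on no β-CB1R+/+ array. The groups overlap in 2 panels, the first *Bcat1* probe and the first *Ephx1* probe.

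Among the enzymes of branched-chain amino acid metabolism, *Ivd* and *Bcat1* were higher in β-CB1R-/- islets on 3 of their 4 probes. *Ivd* encodes isovaleryl-CoA dehydrogenase, a mitochondrial enzyme of leucine breakdown. Its level was 3.03, 3.16, 3.15 and 3.11 in the β-CB1R+/+ mice and 4.01, 4.87 and 4.67 in the β-CB1R-/- mice. The β-CB1R+/+ mice lay within 0.13 of each other and the β-CB1R-/- mice were spread over 0.86, with replicate 1 lowest. The means were 3.11 ± 0.059 (SD, n = 4) and 4.52 ± 0.45 (SD, n = 3), a difference of 1.41 or 2.65-fold. Relative to the β-CB1R+/+ mean the 3 mice were 1.87-fold, 3.39-fold and 2.94-fold higher. β-CB1R-/- replicate 2, highest for *Ivd*, also had the highest summed level of hepatocyte markers, 3.77 against 2.66 to 3.04 in the other mice, and the part of this in the *Ivd* level was not tested.

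*Bcat1* encodes the cytosolic branched-chain aminotransferase, which takes the first step in the breakdown of leucine, isoleucine and valine. Its 3 probes did not behave alike. On probe A_66_P127969 the levels were −4.95, −5.05, −5.74 and −5.89 in the β-CB1R+/+ mice, none of them well above background, and −2.53, −2.53 and −1.89 in the β-CB1R-/- mice. Because the β-CB1R+/+ side is only a bound, taken per array as the lowest signal well above background or the probe's own signal where that was higher, *Bcat1* was at least 2.36-fold higher on this probe and this scale. With normexp, whose offset compresses dim signals, the difference was 0.81, below that bound, and the probe was then not called, nor was it with an intensity trend in the variance. Probe A_55_P1960157 had the same order of groups, with β-CB1R+/+ levels from −5.67 to −4.87 and β-CB1R-/- levels of −3.32, −3.33 and −2.85, and was at least 1.31-fold higher. It was well above background on 2 of the 4 β-CB1R-/- arrays and was not compared across all genes. Probe A_55_P2079669, was above background on all arrays. Its levels were −2.01, −2.48, −1.99 and −3.23 against −1.74, −2.19 and −2.54, so the groups overlapped, and the difference was 0.27.

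*Ehhadh*, the peroxisomal bifunctional enzyme of fatty acid oxidation, was higher by nearly the same amount in each β-CB1R-/- mouse, which lay within 0.23 of each other. Its level was −0.13, 0.02, 0.00 and 0.19 in the β-CB1R+/+ mice and 1.33, 1.52 and 1.56 in the β-CB1R-/- mice. The means were 0.02 ± 0.13 (SD, n = 4) and 1.47 ± 0.12 (SD, n = 3), a difference of 1.45 or 2.73-fold. The SD between β-CB1R-/- mice was the smallest among the 12 separating probes, whose SDs ran from 0.12 to 0.85.

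RefSeq's promoter table for GRCm38.p6, which holds 250 bases before to 50 bases after a gene's start, had an entry for 4 of the 9 genes: *Ehhadh*, *Ivd*, *Bcat1* and *Ephx1*. They were searched on both strands for TTCNNNGAA (the spacing that STAT5 and other STAT factors bind), the ISRE-like interferon response motif, the DR1 repeat bound by PPARs and TGACNNNGC (an antioxidant response type). These motifs were found in 8.30%, 3.44%, 0.0396% and 12.4% of all 32851 promoters. The promoters of *Ivd* and *Ehhadh* are shown because each held 1 of the motifs, in capitals. *Ivd*, at chr2:118861744-118862043 on the plus strand, held TTCNNNGAA starting 88 bases before the start. *Ehhadh*, at chr16:21787785-21788084 on the minus strand, held TGACNNNGC starting 165 bases before the start.
Ivd: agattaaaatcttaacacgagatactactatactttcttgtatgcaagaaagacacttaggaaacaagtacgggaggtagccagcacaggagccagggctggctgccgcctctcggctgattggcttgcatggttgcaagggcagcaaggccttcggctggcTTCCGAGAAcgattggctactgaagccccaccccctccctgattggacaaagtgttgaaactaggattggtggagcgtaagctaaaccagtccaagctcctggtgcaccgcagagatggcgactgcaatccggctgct
Ehhadh: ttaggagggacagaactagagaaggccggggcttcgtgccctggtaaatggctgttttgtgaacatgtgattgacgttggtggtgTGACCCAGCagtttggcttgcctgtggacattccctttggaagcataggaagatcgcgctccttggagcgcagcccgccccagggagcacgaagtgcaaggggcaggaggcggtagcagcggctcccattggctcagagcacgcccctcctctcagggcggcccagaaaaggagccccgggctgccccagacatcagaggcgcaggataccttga
Neither *Bcat1* promoter nor the *Ephx1* promoter held any of the 4 motifs in this window. Only the letters were matched, and no binding was measured.

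*Fmo1* and *Ephx1*, enzymes that act on drugs and other foreign compounds, were higher in β-CB1R-/- islets on 3 of their 4 probes. *Fmo1* encodes a flavin-containing monooxygenase of the endoplasmic reticulum. On probe A_52_P508991, above background on all arrays, its level was −1.27, −0.22, 0.28 and −0.48 in the β-CB1R+/+ mice and 2.81, 2.96 and 3.96 in the β-CB1R-/- mice. The lowest β-CB1R-/- mouse was 2.53 above the highest β-CB1R+/+ mouse. The means were −0.42 ± 0.65 (SD, n = 4) and 3.24 ± 0.62 (SD, n = 3), a difference of 3.66 or 12.7-fold. The 3 mice were 9.40-fold, 10.4-fold and 20.8-fold above the β-CB1R+/+ mean. On the second *Fmo1* probe, A_55_P2153783, no β-CB1R+/+ array was well above background, with levels from −6.11 to −4.58, and the β-CB1R-/- levels were −1.33, −0.68 and 0.22. The order of the β-CB1R-/- mice was the same as on the first probe, and this probe was at least 7.80-fold higher on this scale. With normexp its difference was 2.02, below that bound.

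*Ephx1* encodes microsomal epoxide hydrolase, which opens reactive epoxides with water. Its pair of probes differed. Probe A_55_P2002577 read −0.13, −0.43, −0.08 and −0.12 in the β-CB1R+/+ mice and 1.34, 1.83 and 1.85 in the β-CB1R-/- mice. The groups were separated by 1.42, and the means of −0.19 ± 0.16 (SD, n = 4) and 1.67 ± 0.29 (SD, n = 3) gave a difference of 1.86 or 3.64-fold. Probe A_55_P2002578 read 2.86, 3.22, 3.14 and 3.62 against 3.17, 3.32 and 2.95. Here the groups overlapped and the difference was −0.07, less than the SD in either genotype.

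The disagreement between the *Ephx1* probes was larger than for most genes. Among the 4321 genes with 2 or more compared probes, the median gap between the highest and the lowest difference of a gene's probes was 0.21. It was 1.93 for *Ephx1*, and 0.324% of these genes had a gap as large. The pair of *Neb* probes was 0.035 apart, a gap that 89.7% of genes reached. For *Bcat1* and *Fmo1* no gap is given, because their dim probes have only a bound. The positions of the probes in the transcripts were not given in the files, so which isoforms they read was not tested.

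*Matn2* and *Tnfrsf11b* encode proteins that cells secrete. *Matn2*, a matrilin that links fibres of the extracellular matrix, had a level of 1.52, 1.22, 0.96 and 1.20 in the β-CB1R+/+ mice and 4.36, 4.39 and 5.42 in the β-CB1R-/- mice. Replicates 1 and 2 were within 0.03 of each other and replicate 3 was higher. The means were 1.23 ± 0.23 (SD, n = 4) and 4.72 ± 0.60 (SD, n = 3), a difference of 3.49 or 11.3-fold, and the 3 mice were 8.77-fold, 8.94-fold and 18.3-fold above the β-CB1R+/+ mean.

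*Tnfrsf11b* encodes osteoprotegerin, a decoy receptor that binds the cytokine RANKL. Its level was −0.60, 0.32, −0.74 and −0.26 in the β-CB1R+/+ mice and 1.75, 1.10 and 2.79 in the β-CB1R-/- mice. β-CB1R-/- replicate 2 was lowest and 0.78 above the highest β-CB1R+/+ mouse, the narrowest gap of the 8 separating probes measured in both genotypes. The means were −0.32 ± 0.47 (SD, n = 4) and 1.88 ± 0.85 (SD, n = 3), a difference of 2.20 or 4.60-fold, with the widest spread between β-CB1R-/- mice of the 12 probes. The mice were 4.19-fold, 2.68-fold and 8.65-fold above the β-CB1R+/+ mean.

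*Gbp8* is a guanylate-binding protein of the family that interferons induce. Its probe did not stand well above background in any β-CB1R+/+ mouse but did so on all 4 β-CB1R-/- arrays. The levels were −3.79, −4.64, −4.91 and −4.21 in the β-CB1R+/+ mice and −1.14, −0.32 and 0.16 in the β-CB1R-/- mice, so *Gbp8* was at least 8.72-fold higher on this scale. With a normexp background correction, whose offset raises dim signals and so shrinks their differences, the difference was 1.88, which is below that bound. The β-CB1R-/- mice were spread over 1.30, with replicate 1 lowest.

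*Neb* encodes nebulin, which spans the actin filament of skeletal muscle. Probe A_55_P2116973 read −1.50, −2.08, −1.71 and −2.38 in the β-CB1R+/+ mice and 0.15, 0.92 and 1.41 in the β-CB1R-/- mice, a difference of 2.75 or 6.72-fold. Probe A_55_P2116978 read −2.07, −2.58, −2.63 and −3.18 against −0.32, 0.45 and 0.38, a difference of 2.78 or 6.88-fold. With normexp the differences were 2.02 and 1.68. Both probes were above background on all arrays and kept the genotypes apart by 1.65 and 1.75. Markers of skeletal muscle were mixed. *Myh1* and *Mb* were well above background on no array and *Ckm* on 1 of the 8, while *Acta1*, *Tnnt3* and *Tmod4* were so on all 8, with differences of 0.34, 0.02 and −0.14 and overlapping groups. *Actn3* was 1.69 higher without overlap, with 2 of 4 β-CB1R+/+ arrays well above background. The part of muscle RNA in the *Neb* level was not tested.

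The β-CB1R-/- mice were ordered in much the same way across the genes. Taking 1 separating probe for each gene, β-CB1R-/- replicate 3 was highest for 8 of the 9 genes and replicate 2 for *Ivd*. By the brightest compared probe it was highest for 6 and lowest for 2, *Bcat1* and *Ephx1*, whose brightest probes did not separate the genotypes. Replicate 1 was lowest for 7 genes, and replicate 2 for *Tnfrsf11b* and, by a small margin, *Bcat1*. Over the 7 genes measured above background in both genotypes, the median level above the β-CB1R+/+ mean was 2.07 in replicate 1, 2.02 in replicate 2 and 3.11 in replicate 3. With quantile normalisation replicate 3 was highest for 6 genes and replicate 2 for 3, while the other scalings left the count at 8. The array of replicate 3 was also the brightest, with a 75th percentile of 362 intensity units against 235 to 289 on the other arrays, and it had the lowest summed level of beta cell markers (11.69, against 11.96 to 12.36 in the other 6 mice). That sum is carried by the very bright hormone genes *Ins1*, *Ins2* and *Iapp*, which were lowest in replicate 3 among the β-CB1R-/- mice, while the other 7 of the 10 markers were highest there. Its acinar markers summed to 13.41, against 14.41 and 14.36 in the other β-CB1R-/- mice. The part of these in the order of the mice was not tested, and how often this order held over all genes was not counted.

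**Figure D2:**
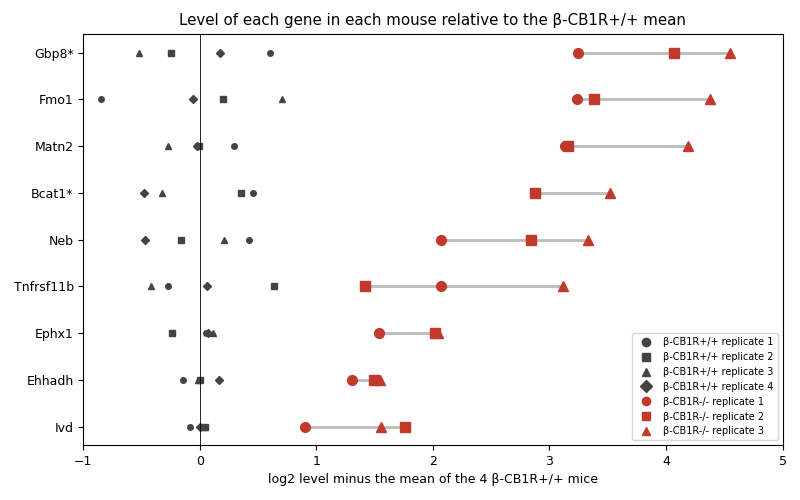
Level of each gene in each mouse minus the mean of the 4 β-CB1R+/+ mice, on the log2 scale, for 1 separating probe per gene. Red symbols are the 3 β-CB1R-/- mice, joined by a grey bar, and small dark symbols are the β-CB1R+/+ mice. Stars mark *Gbp8* and *Bcat1*, not well above background in any β-CB1R+/+ mouse, so that their distance from 0 is not exact. Replicate 3 (triangle) lies furthest right for 8 of the 9 genes.

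The repeat arrays of β-CB1R-/- replicate 2 differed by 0.0036 to 0.20 on all 14 probes of the 9 genes, with a median of 0.043. Over all compared probes the SD of that difference was 0.46. The range over the 3 β-CB1R-/- mice was 0.23 to 1.69 on the 12 separating probes, with a median of 0.96. The SD was larger between β-CB1R-/- mice than between β-CB1R+/+ mice for 6 of the 9 genes, and for 57.8% of all compared probes. No β-CB1R+/+ mouse stood apart as high on most genes: over the 12 probes replicate 1 was highest on 6 and each of the others on 2.

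For co-variation within a genotype, each mouse's level was taken as its deviation from the mean of its own genotype, which removes the difference that chose the genes, and deviations were correlated between genes over the 7 mice. Each gene was read from the same separating probe as in the order of the mice. For *Bcat1* and *Ephx1* this was not the brightest probe, on which β-CB1R-/- replicate 3 was the lowest of its genotype. The r of those brightest probes was not computed, so pairs with *Bcat1* or *Ephx1* hold for the separating probes only. Over the 36 pairs the median Pearson r was 0.37, from −0.29 (*Ehhadh* with *Bcat1*) to 0.80 (*Gbp8* with *Matn2*), with 30 pairs above 0 and 16 above 0.5. *Ivd* with *Ephx1* and *Matn2* with *Bcat1* followed at 0.74 each, and *Matn2* with *Tnfrsf11b* at 0.71. These values come from 7 libraries that the genes share, with their depth and scaling, and are given as a description. *Matn2* was closest to the mean of the other 8 genes (r = 0.86), then *Neb* (0.69), *Gbp8* (0.59) and *Bcat1* (0.54). *Ehhadh* (0.39) and *Fmo1* (0.30) were furthest from it. An r above 0.5 was thus reached by 4 of the 9 genes, and by 30.6% of 16931 other genes with the mean of the 9, whose median r was 0.086. The mean deviation over the 9 genes was −0.39, −0.09 and 0.48 in β-CB1R-/- replicates 1, 2 and 3 and lay between −0.06 and 0.06 in the β-CB1R+/+ mice. These mean deviations were widest apart between β-CB1R-/- replicates 3 and 1. For *Gbp8* and *Bcat1* the β-CB1R+/+ deviations come from signals that were not well above background.

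**Figure D3:**
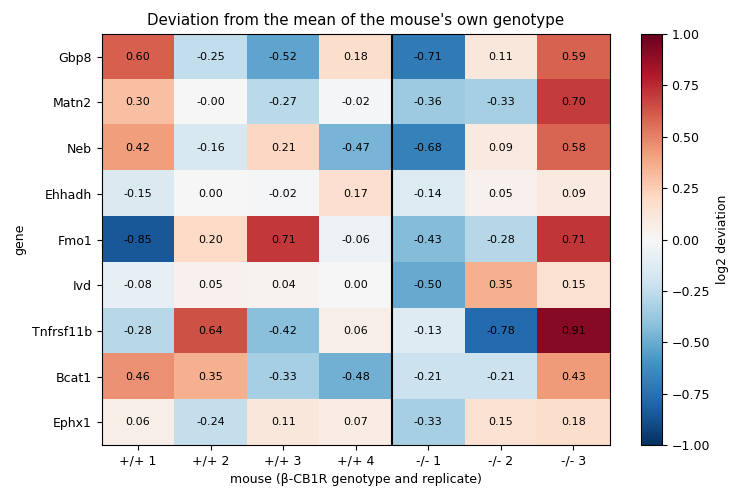
Log2 deviation of each gene (rows, 1 separating probe each) in each mouse (columns) from the mean of the mouse's own genotype. Red is above and blue below that mean, and the black line separates the genotypes. β-CB1R-/- replicate 1 is below its mean for all 9 genes and replicate 3 above it for all 9.

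Deviations of the 9 genes, on the same separating probes, were set beside those of the receptor, feedback and serotonin genes of the same pathway. The r given for *Bcat1* and *Ephx1* hold for those probes only, since their brightest probes, which did not separate the genotypes, were not correlated. The prolactin receptor gene *Prlr* lay at 5.05, 5.29, 4.61 and 4.49 in the β-CB1R+/+ mice and 5.30, 4.32 and 6.45 in the β-CB1R-/- mice, so its groups overlapped. It shared the order of *Tnfrsf11b* among the β-CB1R-/- mice, replicate 3 above 1 above 2, and the deviations of *Prlr* had r = 0.89 with *Tnfrsf11b*, 0.81 with *Matn2* and 0.75 with *Bcat1*, but −0.17 with *Ivd* and −0.12 with *Ephx1*. *Tph1*, the first enzyme of serotonin synthesis, had the same order. Its r was 0.91 with *Tnfrsf11b* but −0.24 with *Ephx1*, −0.21 with *Ivd* and −0.15 with *Neb*, with a median of 0.26 over the 9, and 3 of its 4 β-CB1R+/+ levels were not well above background. *Socs2*, a STAT5-induced inhibitor of growth hormone signalling, had high r with other members: r was 0.87 with *Ephx1*, 0.82 with *Gbp8* and 0.77 with *Neb*, but 0.24 with *Bcat1*, 0.14 with *Ehhadh*, −0.12 with *Fmo1* and −0.24 with *Tnfrsf11b*. The 75th percentile of the array, a technical measure, had r above 0 with all 9 genes (0.25 to 0.89), the summed beta cell markers, which follow the hormone genes, r below 0 with all 9 (−0.81 to −0.14), and *Cnr1* r from −0.43 to 0.46. The acinar list had r down to −0.90 (with *Tnfrsf11b*), and below 0 with 8 of the 9. For macrophages r ran from −0.81 (with *Matn2*) to 0.31, with 2 above 0. That sum follows *Itgam*, lowest in replicate 3 among the β-CB1R-/- mice, while *Adgre1*, *Lyz2*, *C1qa* and *C1qc* were highest there and the rest in replicate 2. For alpha cells r ran from −0.87 (with *Ehhadh*) to 0.13, with 2 above 0. The immediate-early list, whose summed level ran from 2.74 to 8.30 between mice, had r from −0.79 (with *Bcat1*) to 0.49, with 4 above 0. These correlations are over the same 7 mice, and their part in the movement of the 9 genes was not tested.

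The rest of the pathways around these genes was taken from 9 lists with the 9 genes left out. Of 177 listed genes 159 were compared, 92 were higher and 67 lower, and their median difference was 0.09, against −0.04 over all genes. Only *Tph1* passed limma's adjusted threshold, against 0.171% of all genes, and 11 had an unadjusted p under 0.05, against 3.90% of all genes. Of all genes 44.3% were higher. *Tph1* lay at −4.82, −3.55, −5.61 and −3.38 in the β-CB1R+/+ mice, where 1 of 4 arrays was well above background, and at 4.15, 2.49 and 5.39 in the β-CB1R-/- mice (limma adjusted p = 0.0142). Leaving out β-CB1R+/+ replicate 3, or else replicate 2 or 3 of the β-CB1R-/- mice, left 0 called genes.

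**Figure D4:**
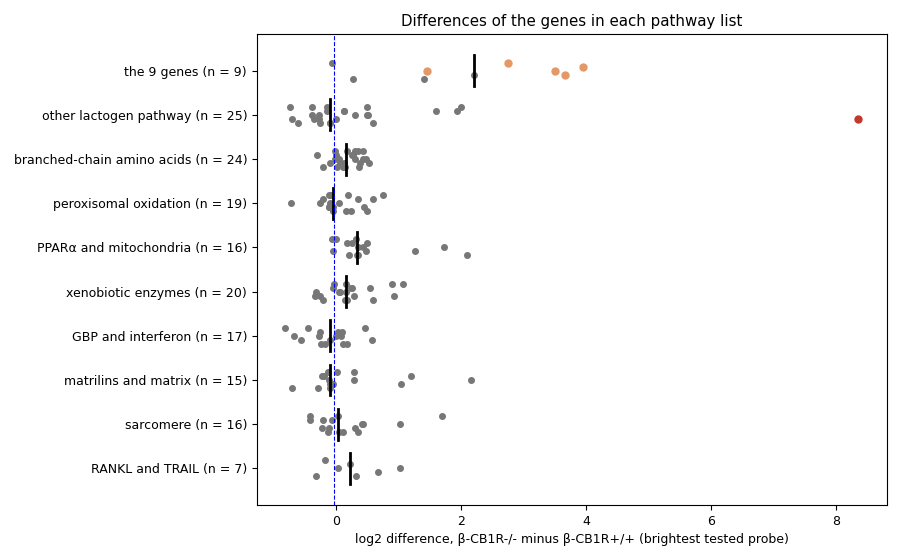
Log2 difference between genotypes for each compared gene (brightest probe) of the 9 genes and of 9 pathway lists, with the number compared in brackets. Black ticks are medians, the dashed line is the median of all genes, and coloured points passed limma's adjusted threshold. *Tph1* at 8.35, a fitted value from dim β-CB1R+/+ arrays, is the only coloured point outside the 9 genes.

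Among the 25 compared other genes of lactogen signalling and response, 11 were higher and 14 lower, with a median of −0.10. *Socs2* was 1.59 higher on its brightest probe, with 1.60 and 1.54 on the other probes, and its groups did not overlap on any of the 3 (limma adjusted p = 0.406, 0.253 and 0.582). *Cish*, another feedback inhibitor, had a difference of 2.00 with overlapping groups, since its β-CB1R+/+ levels ran from 0.44 to 4.16. The receptors and transcription factors had smaller differences: 0.50 and 0.65 on the *Prlr* probes, −0.27 and 0.03 on those of *Ghr*, −0.28 for *Stat5a*, and −0.15 and −0.37 for *Stat5b*. The groups did not overlap on the first *Ghr* probe or for *Stat5a*. By brightest probe 3 of the 25 genes were higher without overlap and 4 were lower, where 2.61% and 2.22% of all genes were, the lower ones including *Ccnd1* at −0.71 and *Foxm1* at −0.35, which were named after their values were seen. *Tph2* had a difference of 1.94 (limma adjusted p = 0.603), with 1 of 4 β-CB1R+/+ arrays well above background.

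No gene of the metabolic lists passed the adjusted threshold. Of 24 branched-chain amino acid genes, 18 were higher and 6 lower with a median of 0.15, and 0 passed the adjusted threshold (1 with an unadjusted p under 0.05). That gene was *Bckdhb*, a subunit of the branched-chain ketoacid dehydrogenase, at 0.43. By brightest probe 4 of the 24, *Bckdhb*, *Acat1*, *Slc7a5* and *Slc3a2*, were higher without overlap and 0 were lower. The shares over all genes were 2.61% and 2.22%. *Bcat2*, the mitochondrial counterpart of *Bcat1*, was at 0.37 with overlapping groups. Of 19 peroxisomal genes 9 were higher and 10 lower, and none passed by limma's adjusted p or by an unadjusted p under 0.05 (0 in each case). *Hsd17b4*, which acts beside *Ehhadh* in the peroxisomal pathway, was at −0.11, and *Cat*, the gene of the list with the smallest p, had a difference of 0.58. Of 16 genes of the PPARα and mitochondrial list 13 were higher and 3 lower, with a median of 0.34, 0 called and 0 at an unadjusted limma p under 0.05. *Angptl4* was at 2.09 in that list, with its groups overlapping. Among 20 xenobiotic genes 14 were higher, 6 lower and 0 called, with 1 at an unadjusted p under 0.05. That was *Fmo4*, at 0.92, while *Fmo2* was at 0.89 and *Fmo5* at 0.23. *Ephx2*, *Ephx3* and *Ephx4* were at 0.26, −0.21 and 0.05.

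The relatives of *Gbp8*, *Matn2*, *Neb* and *Tnfrsf11b* did not pass the threshold either. Of 17 guanylate-binding and interferon genes 7 were higher and 10 lower, with a median of −0.11, 0 called and 0 at an unadjusted p under 0.05. *Gbp2*, *Gbp3*, *Gbp5* and *Gbp10* were at −0.68, −0.82, −0.27 and −0.18, and *Gbp4*, *Gbp6* and *Gbp9* at 0.57, 0.17 and 0.45. *Gbp7* had a difference of −0.0018, *Gbp2b* was near background, and the smallest p of the list belonged to the interferon-induced GTPase gene *Igtp*, at −0.57. Of 15 matrix genes 6 were higher and 9 lower, with 0 called and 1, *Fn1*, at an unadjusted p under 0.05. *Matn4* was at 0.28, *Matn1* and *Matn3* were well above background on no array, and fibronectin, *Fn1*, was at 2.15 with overlapping groups. Of 16 sarcomere genes 9 were higher and 7 lower, with 0 called and 2 at an unadjusted p under 0.05. *Actn2*, an α-actinin of the Z disc, was at 1.01 with groups that did not overlap (limma adjusted p = 0.794), and *Nebl*, the nearest relative of *Neb*, was at −0.24. Of 7 genes around RANKL and TRAIL 5 were higher and 2 lower, with 0 called and 1 at an unadjusted p under 0.05. *Tnfsf11*, which encodes RANKL, was well above background on no array, its receptor *Tnfrsf11a* was at 0.22 and *Tnfrsf10b*, the gene of the list with the smallest p, had a difference of 0.67.

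Outside the lists, the genes whose level over the 7 mice was most like the mean standardised level of the 9 included *Sftpd*, *Dnah8*, *Lrrc55* and *Lonrf3*, with Pearson r from 0.989 to 0.996. This likeness includes the difference between genotypes that chose the 9 genes and is given without a test. *Sftpd*, surfactant protein D, lay between −0.94 and −0.47 in the β-CB1R+/+ mice and at 4.02, 5.13 and 5.42 in the β-CB1R-/- mice. *Dnah8*, a dynein heavy chain, lay between −0.11 and 0.06 and at 2.94, 4.03 and 3.97. *Lrrc55* was at 0.58, 1.36 and 1.77 and *Lonrf3* at 1.10, 2.02 and 2.10 in the β-CB1R-/- mice. In these 4 genes, as in most of the 9, β-CB1R-/- replicate 1 was the lowest of its genotype.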

How the data were processed

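Per the labels and file headers, Cy3-labelled islet RNA was scanned from 8 arrays on 1 slide. The authors deposited spot intensities from Feature Extraction 11.5.1.1, which subtracts background within the array, together with a Z score per spot, which matched the standardised log10 intensity of the array to within 0.00503. For the 59305 non-control spots, log2 intensities were expressed relative to the 75th percentile of their array. No spot was saturated. Spots flagged by the scanner software (non-uniform or population outlier) were dropped, remaining spots were averaged per probe, and both arrays of β-CB1R-/- replicate 2 were averaged into 1 mouse. The 39160 of 55681 probes that stood well above background in 3 or more mice were compared with limma 3.58.1 in R 4.3.3. Its two-sided p-values were adjusted by Benjamini-Hochberg and called under 0.05. The labels name separate replicates without saying which of them share a litter or cage, so p-values measure the spread between these samples, and the number of arrays limits the precision.

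Probes were matched through their accession to RefSeq symbols of GRCm38.p6 (28026 probes, 21154 genes), and since the array header names another build no coordinates of probes are given. A gene in a list is read from its brightest compared probe. A probe well above background on no array of a genotype is given as a bound, beside its fitted difference under normexp, which is not exact. The 9 genes and all lists were chosen with earlier results of these data known. Genes were named by rule: the 9 genes, *Cnr1*, called genes of each list (at most 5) or the one with the smallest p, paralogues and direct partners of the 9, and the 5 genes most correlated with the mean standardised level of the 9. Some genes that the rule names are not reported here. The alternatives were normexp background correction (on median intensities, offset 50, because mean intensities were not in the files used here), quantile normalisation, the deposited Z scores, other filters on dim probes, either repeat array, an intensity trend for limma's variances, the methods' t-test, the replicate number as a block, and each mouse left out. Unadjusted limma counts and the order of the mice under other scalings were added after the data were seen. The fit was tested on simulated data.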

Additional observations from a re-analysis of the deposited data

Results flagged for a closer look

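Of 27 sets of levels from 4 β-CB1R+/+ mice that were examined for a sample far from the others, 1 held such a sample, where chance gives about 1.35. On *Ephx1* probe A_55_P2002577, β-CB1R+/+ replicate 2 read −0.43, below the other mice of its genotype at −0.13 to −0.08.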

How the results depend on the processing

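Over 128 alternative values, the differences of the 8 probes that kept the genotypes apart and were measured in both ran from 1.23 (*Ivd*) to 3.90 (*Fmo1*). Of these, 124 moved by less than the spread between mice and 4 by more. Leaving out a mouse or changing the filter cannot turn the sign of such a probe, so their staying above 0 shows no stability. The reported fit called 43 probes, against 23 with no filter on dim probes, 24 with a filter on all 8 arrays, 0 by the methods' t-test after Benjamini-Hochberg and 1412 before it (757 higher and 655 lower), and 1406 by limma's unadjusted p, of which 655 were higher and 751 lower. With each mouse left out in turn it was 0 to 32. Of the 9 genes, 7 had a called probe in the reported fit, 4 with no filter, 0 by the adjusted t-test, and 0 to 5 with a mouse left out. In the pathway lists 1 gene was called in the reported fit, 0 with the filter on all arrays, 0 by the adjusted t-test, 14 by the unadjusted t-test, 11 by limma's unadjusted p, and 0 to 1 with a mouse left out. The median difference of the 9 genes was 1.57 to 2.41 with a mouse left out, lowest without β-CB1R-/- replicate 3, and over 8 genes whenever a β-CB1R-/- mouse was left out, since *Gbp8* then missed the filter. The number of marker lists whose genotypes do not overlap was 1 to 5 with a mouse left out.

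Deviations of same-numbered mice correlated at 0.42, −0.27 and −0.06, and those of differently numbered mice at −0.37 to 0.50. With so few mice these values cannot decide whether the numbers pair the mice. With the replicate number as a replicate block, 0 probes, 0 of the 9 genes and 0 pathway genes were called, and the median of the 9 was 2.22. Signal near background limits 4 of the 14 probes to bounds.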
